A study of Mus musculus with 18 samples.

Results

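This account describes how the transcriptional response of the mouse left ventricle to ischaemia and reperfusion (IR) in Sesn2 knockout hearts differed from that in young wild-type hearts. The quantity is a difference of responses, gene by gene: the log2 fold change of IR over sham in the knockout minus the same fold change in the wild type, so a negative value is a lower response in the knockout. It uses 12 of the 18 libraries of the study, 3 in each of 4 groups: Sesn2-KO after IR, Sesn2-KO after sham surgery, young WT after IR and young WT after sham surgery. All 12 mice carried a C57BL/6 background and were 3 to 4 months old. The knockout animals (genotype Sesn2-/-) were bred in the submitters' own colony and the wild-type animals were bought from The Jackson Laboratory, so genotype and source cannot be told apart. For IR the left anterior descending coronary artery was tied off for 45 minutes and then reopened for 24 hours, and sham animals had the same thoracotomy without the occlusion. RNA came from the left ventricle, a bulk tissue in which fewer cells of a type and less RNA per cell cannot be told apart.

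Sestrin 2 is a stress-induced protein that binds GATOR2 to restrain mTORC1 and that promotes AMPK activity, and in the heart it is known for protection against ischaemic injury. After a coronary artery is reopened, neutrophils enter the damaged muscle first, monocytes follow, and resident cells make chemokines, acute-phase proteins and matrix-remodelling enzymes. A difference of responses can come from the level after sham surgery, from the level after IR, or from both. It equals the genotype difference after IR minus the genotype difference after sham surgery, and both of these are given below for each gene. The 2 differences use the same libraries as the test, so the split is arithmetic and a description. No hearts without surgery were among the samples, so a resting level and a reaction to the thoracotomy cannot be told apart in sham hearts.

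The 12 libraries held 9860901 to 14258639 counts in genes, and 13859 genes passed the filter on low counts. Sesn2 itself followed the labels, with 0.301, 0.322 and 0.0708 CPM (counts scaled to a library of equal size) in Sesn2-KO IR, 0, 0.149 and 0.371 CPM in Sesn2-KO sham, 2.56, 4.19 and 4.23 CPM in young WT IR and 5.96, 2.76 and 2.91 CPM in young WT sham hearts. Several libraries stood apart from their group. Young WT sham 3 had a summed level of 48 interferon-response genes of 11320 CPM, against 888 to 1412 CPM in the other 11 libraries. Young WT IR 1 lay at -19.7 on the first principal component of the 12 libraries, against 14.0 and 24.0 for the other young WT IR libraries. Longer transcripts were relatively higher than the group mean in 1 library of each group (Sesn2-KO IR 3, Sesn2-KO sham 3, young WT IR 3 and young WT sham 1), with Spearman correlations over genes between 0.31 and 0.48. Several results that move with these libraries are given with and without them.

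The response to IR was smaller in the knockout for the genes that differed most. By edgeR's quasi-likelihood test with Benjamini-Hochberg adjustment (called at an adjusted p below 0.05), 8 genes had a different response, which is 0.0577% of the genes tested: Serpina3n, Mmp3, Clec4d, Saa3, Spp1, Lcn2, Ptx3 and Hmox1. All 8 rose after IR in young WT hearts, all 8 had a lower response in the knockout, and 0 genes had a higher one. Before adjustment, 461 genes were lower (3.33%) and 308 higher (2.22%) at p below 0.05, and DESeq2's Wald test called 27 lower and 3 higher. On the first principal component Sesn2-KO IR libraries were at 18.9, 48.8 and 39.8, Sesn2-KO sham at 5.86, -0.94 and 8.52, young WT IR at -19.7, 14.0 and 24.0, and young WT sham at -49.0, -44.8 and -45.5. The Sesn2-KO sham libraries thus fell between the young WT sham libraries, which did not overlap with any other group, and most of the injured ones.

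Each genotype's own response puts the difference in context. IR against sham called 0 genes in Sesn2-KO hearts (0%). Before adjustment 2037 genes (14.7%) were at p below 0.05 there and the lowest adjusted p was 0.197, while limma voom with quality weights called 1235 genes and the Wald test of DESeq2 131. In young WT hearts it called 841 genes (6.07%), 578 higher (4.17%) and 263 lower (1.9%). The 578 genes that rose in young WT had a median log2 response of 0.50 in Sesn2-KO and 1.13 in young WT. Of these, 542 had the same sign in Sesn2-KO and 571 a smaller response there. The 263 genes that fell in young WT had a median of -0.30 in Sesn2-KO and -0.90 in young WT, with 236 of the same sign and 253 smaller. The genes were chosen by the young WT response, so these counts are a description and carry no test. Across all 13859 genes the responses in the 2 genotypes, which share no library, had Pearson's r = 0.57 and Spearman's rho = 0.55, and genes are not independent replicates.

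**Figure D1:**
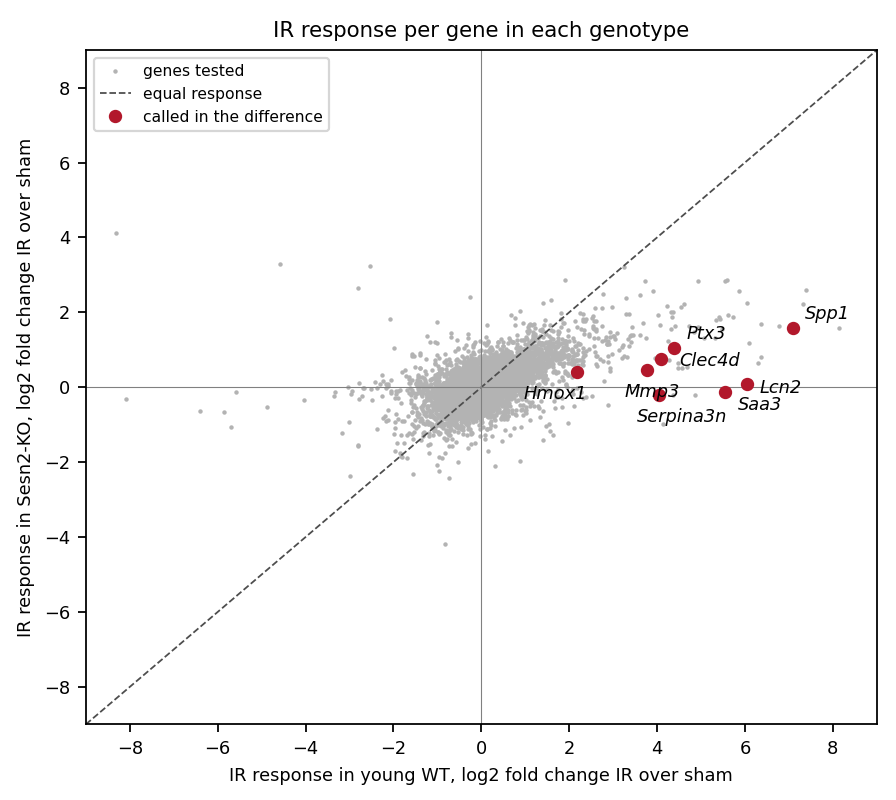
Fitted log2 fold change of IR over sham for each of the 13859 genes tested, in Sesn2-KO (vertical axis) against young WT (horizontal axis). Grey points are genes, the dashed line marks an equal response, and red points are the 8 genes called in the difference, which lie between 2.17 and 7.10 in young WT and between -0.21 and 1.59 in Sesn2-KO.

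More genes were called between the genotypes after sham surgery than after IR. Between Sesn2-KO and young WT, 708 genes were called in sham hearts (5.11%), 460 higher (3.32%) and 248 lower (1.79%) in the knockout. After IR 60 were called (0.433%), 43 higher (0.31%) and 17 lower (0.123%). For the 578 genes that rose after IR in young WT, the median genotype difference was 0.23 after IR and 0.79 after sham. For the 263 that fell it was -0.14 after IR and -0.65 after sham. The young WT sham libraries enter both the choice of these genes and the sham difference, so these medians are a description. The same 8 genes called in the difference of responses were all called higher in Sesn2-KO sham than in young WT sham hearts, and 0 of the 8 were called after IR.

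Some genes known to vary between C57BL/6 substrains also differed between the genotypes. Of 6 such genes, 2 were higher (Nnt and Wdfy1) and 1 lower (Ide) in Sesn2-KO sham hearts, and 1 was higher (Wdfy1) and 1 lower (Ide) after IR. Of all genes, 3.32% were higher and 1.79% lower in Sesn2-KO sham hearts, and 0.31% and 0.123% after IR. Wdfy1 had 51.7, 74.8 and 81.9 CPM in Sesn2-KO IR and 45.8, 48.4 and 55.3 CPM in Sesn2-KO sham hearts, against 9.22, 9.58 and 15.4 CPM in young WT IR and 10.4, 9.32 and 11.6 CPM in young WT sham hearts. Nnt, the mitochondrial transhydrogenase gene, had 793, 781 and 814 CPM in Sesn2-KO IR and 1074, 1121 and 1123 CPM in Sesn2-KO sham hearts, against 653, 451 and 486 CPM in young WT IR and 768, 551 and 691 CPM in young WT sham hearts. For both genes every Sesn2-KO library was above every young WT library. Ide, named after its values were seen, was at -1.35 after IR and -1.21 after sham on the log2 scale (adjusted p = 0.00291 and 0.00122). In the difference of responses 0 of the 6 were called, with a median of -0.14. The part of substrain or colony in the genotype differences was not tested.

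Responses were classed by their size and sign. A response was opposite where the genotypes had different signs and both were at least 0.5 in size on the log2 scale, and otherwise smaller or larger in the knockout by its size. All 8 called genes were smaller. Among the 769 genes with an unadjusted p below 0.05 (5.55%), 569 (74%) were smaller, 150 (19.5%) larger and 50 (6.5%) opposite, against 54.6%, 44.7% and 0.736% of all genes tested. A difference was called baseline-weighted where the sham difference was at least 2 times the IR difference in size, injury-weighted in the reverse case and mixed otherwise. Baseline here means the level after sham surgery, not a resting level. All 8 called genes were baseline-weighted. Of the 769, 485 (63.1%) were baseline-weighted, 97 (12.6%) injury-weighted and 187 (24.3%) mixed, against 29.9%, 24.1% and 45.9% of all genes. A small p selects genes with large differences, so these shares are a description.

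Among the called genes, 4 encode secreted proteins of the acute phase or of innate defence. Serpina3n (chromosome 12, 104406729 to 104414329, GRCm38), a secreted serine protease inhibitor of the acute phase, had 455, 406 and 553 CPM in Sesn2-KO IR and 365, 549 and 723 CPM in Sesn2-KO sham hearts, against 319, 148 and 213 CPM in young WT IR and 13.4, 12.6 and 15.2 CPM in young WT sham hearts. All 3 Sesn2-KO sham libraries were above every young WT library, and the IR and sham libraries of the knockout overlapped. Its log2 response was -0.21 ± 0.31 in Sesn2-KO and 4.04 ± 0.36 in young WT, a difference of -4.26 ± 0.46 (adjusted p = 0.000711). The genotype difference was 1.06 ± 0.31 after IR (adjusted p = 0.176) and 5.31 ± 0.38 after sham (adjusted p = 1.26e-06), so that the sham difference made up 83.4% of the 2 differences added by size. The Serpina3 genes form a cluster of close paralogues, and the counting of their shared reads is uncertain.

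Saa3 (chromosome 7, 46711998 to 46715700), a serum amyloid A gene active in macrophages and other cells outside the liver, had 8.22, 9.41 and 6.30 CPM in Sesn2-KO IR and 8.94, 11.3 and 5.78 CPM in Sesn2-KO sham hearts, against 14.2, 3.96 and 4.79 CPM in young WT IR and 0.0693, 0.237 and 0.166 CPM in young WT sham hearts. Only young WT sham hearts were low, and the other 3 groups overlapped. The difference of responses was -5.67 ± 0.83 (adjusted p = 0.0119), from -0.12 ± 0.42 in Sesn2-KO and 5.54 ± 0.68 in young WT. Its genotype difference was 0.06 ± 0.42 after IR and 5.73 ± 0.67 after sham (adjusted p = 0.971 and 0.000179), with 98.9% of the sum of sizes on the sham side, the highest share of the 8. Saa3 has related family members, so its counts carry the same uncertainty.

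Ptx3 (chromosome 3, 66219910 to 66225805) encodes pentraxin 3, a soluble receptor that binds microbes, complement and matrix. It had 18.04, 11.9 and 19.2 CPM in Sesn2-KO IR and 3.92, 9.17 and 10.8 CPM in Sesn2-KO sham hearts, against 8.62, 14.96 and 16.8 CPM in young WT IR and 0.554, 0.790 and 0.582 CPM in young WT sham hearts. In both genotypes the IR libraries lay above the sham libraries, with a wider gap in young WT. The response was 1.04 ± 0.32 in Sesn2-KO (adjusted p = 0.202) and 4.37 ± 0.42 in young WT, a difference of -3.33 ± 0.54 (adjusted p = 0.0242).

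Lcn2 (chromosome 2, 32384633 to 32388252) encodes lipocalin 2, which binds bacterial siderophores and is made by neutrophils and by stressed parenchymal cells. It had 582, 295 and 305 CPM in Sesn2-KO IR and 149, 618 and 348 CPM in Sesn2-KO sham hearts, against 441, 99.9 and 176 CPM in young WT IR and 3.12, 2.76 and 5.07 CPM in young WT sham hearts. The knockout groups overlapped each other and the young WT IR libraries, which spread over a wide range. Its difference of responses was the lowest of the 8, at -5.95 ± 0.89 (adjusted p = 0.0121), with 0.08 ± 0.56 in Sesn2-KO and 6.04 ± 0.73 in young WT. The genotype difference was 0.72 ± 0.56 after IR (adjusted p = 0.623) and 6.67 ± 0.75 after sham (adjusted p = 0.000111).

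**Figure D2:**
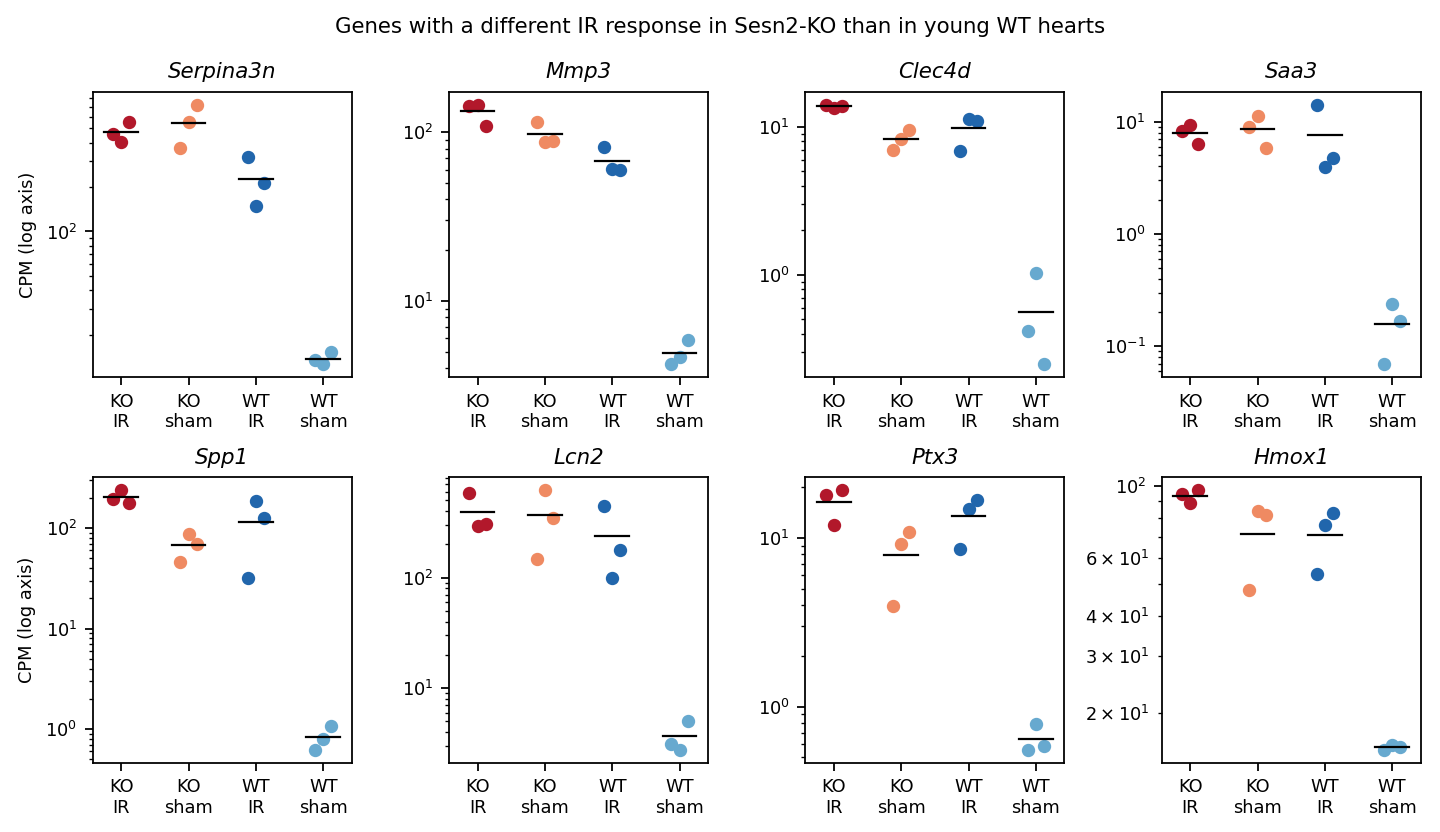
CPM (log axis) of the 8 genes called in the difference of responses, in Sesn2-KO IR, Sesn2-KO sham, young WT IR and young WT sham hearts. Points are libraries (n = 3 each) and bars are group means. In each panel the 3 young WT sham libraries lie below the other 9, for Lcn2 at 2.76 to 5.07 CPM against 99.9 CPM or more.

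Matrix and myeloid genes completed the list with a smaller response. Mmp3 (chromosome 9, 7445822 to 7455975), the matrix metalloproteinase stromelysin 1, had 144, 146 and 109 CPM in Sesn2-KO IR and 115, 87.7 and 88.8 CPM in Sesn2-KO sham hearts, against 81.8, 60.4 and 59.5 CPM in young WT IR and 4.23, 4.66 and 5.90 CPM in young WT sham hearts. Every knockout library, sham ones included, was above every young WT library. The response was 0.45 ± 0.24 in Sesn2-KO and 3.77 ± 0.29 in young WT, a difference of -3.32 ± 0.37 (adjusted p = 0.000711). The genotype difference was 0.98 ± 0.24 after IR (adjusted p = 0.0966) and 4.30 ± 0.29 after sham (adjusted p = 1.11e-06).

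Spp1 (chromosome 5, 104435118 to 104441050) encodes osteopontin, a secreted matrix protein of macrophages and activated fibroblasts. It had 195, 237 and 179 CPM in Sesn2-KO IR and 46.4, 87.9 and 68.6 CPM in Sesn2-KO sham hearts, against 31.5, 186 and 125 CPM in young WT IR and 0.624, 0.790 and 1.08 CPM in young WT sham hearts. IR libraries lay above sham libraries in both genotypes, without overlap. Its log2 response was 1.59 ± 0.47 in Sesn2-KO (adjusted p = 0.202) and 7.10 ± 0.68 in young WT, a difference of -5.51 ± 0.81 (adjusted p = 0.0119). On the CPM scale the order turned: the mean increment of IR over sham was 136 CPM in Sesn2-KO and 113 CPM in young WT, so that the smaller ratio went with a larger increment.

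Clec4d (chromosome 6, 123262111 to 123275265), a C-type lectin receptor of neutrophils and monocytes, had 14.1, 13.5 and 13.9 CPM in Sesn2-KO IR and 6.98, 8.27 and 9.49 CPM in Sesn2-KO sham hearts, against 6.91, 11.4 and 10.99 CPM in young WT IR and 0.416, 1.03 and 0.249 CPM in young WT sham hearts. The knockout IR libraries were the highest of all 12, and the knockout sham libraries lay in the range of the injured young WT hearts. The response was 0.75 ± 0.28 in Sesn2-KO (adjusted p = 0.241) and 4.09 ± 0.37 in young WT, a difference of -3.35 ± 0.47 (adjusted p = 0.0111). Hmox1 (chromosome 8, 75093621 to 75100589), the haem oxygenase that degrades free haem and a target of NRF2, had 94.7, 89.1 and 97.2 CPM in Sesn2-KO IR and 47.9, 84.1 and 81.9 CPM in Sesn2-KO sham hearts, against 53.8, 76.1 and 82.7 CPM in young WT IR and 15.5, 16.03 and 15.7 CPM in young WT sham hearts. Young WT sham libraries were closely grouped and far below the rest. Its response was 0.39 ± 0.20 in Sesn2-KO and 2.17 ± 0.22 in young WT, a difference of -1.78 ± 0.29 (adjusted p = 0.0287), the smallest in size of the 8.

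The calls rested unequally on single libraries. Serpina3n and Mmp3 were called without each of the 12 libraries in turn. Without young WT sham 1 these 2 were the only calls, and the same held without young WT sham 3, while 3 genes were called without young WT sham 2, 5 without Sesn2-KO IR 2 and 16 without young WT IR 1. Hmox1 was called in 2 of the 12 fits that left out a library and Ptx3 in 3. The 8 genes were not called without the 4 length-tilted libraries together, which left 2 hearts a group, and edgeR called no other gene (534 genes at an unadjusted p below 0.05). The log2 differences kept their sign in all of these fits.

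Promoter sequence is shown for 3 of the called genes, picked because they differ in role and carry motifs. The windows are the 250 bases before the RefSeq start on GRCm38.p6, all on the plus strand, in lower case with motif matches in capitals.
Mmp3, chr9:7445572-7445821: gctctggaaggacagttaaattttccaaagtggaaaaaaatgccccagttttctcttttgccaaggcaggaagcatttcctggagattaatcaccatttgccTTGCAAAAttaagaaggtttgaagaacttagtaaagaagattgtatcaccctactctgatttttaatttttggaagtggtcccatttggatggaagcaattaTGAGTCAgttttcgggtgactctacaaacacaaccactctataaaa
Serpina3n, chr12:104406458-104406707: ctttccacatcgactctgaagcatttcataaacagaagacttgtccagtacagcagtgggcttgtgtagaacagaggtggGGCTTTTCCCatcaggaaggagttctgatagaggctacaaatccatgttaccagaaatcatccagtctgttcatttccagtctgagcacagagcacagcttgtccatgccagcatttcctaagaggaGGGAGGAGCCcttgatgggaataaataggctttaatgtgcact
Ptx3, chr3:66219637-66219886: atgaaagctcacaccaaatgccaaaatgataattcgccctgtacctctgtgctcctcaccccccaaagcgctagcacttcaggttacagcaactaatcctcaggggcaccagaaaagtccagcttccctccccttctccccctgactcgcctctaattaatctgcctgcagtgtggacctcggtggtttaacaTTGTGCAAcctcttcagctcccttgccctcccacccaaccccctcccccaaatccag
Capitals mark TTGCNNAA (C/EBP) and TGANTCA (AP-1) in Mmp3, GGGANNNNCC (NF-kB) at 2 places in Serpina3n, and the C/EBP motif in Ptx3, on either strand and with no overlap between matches. Among all 32851 windows of this length in the RefSeq table, 9.56% held the C/EBP motif, 6.75% the AP-1 motif, 17.6% the NF-kB motif and 7.02% the STAT motif TTCNNNGAA. Of the 7 called genes with an entry (Hmox1 had none), 4 held the C/EBP motif (Lcn2, Ptx3, Saa3 and Mmp3), 1 the AP-1 motif, 1 the NF-kB motif and 0 the STAT motif. Clec4d and Spp1 held none of these motifs. A match describes letters in a window and is not a binding site. The part of these motifs in the levels of the called genes was not tested.

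The genes next in line had the same shape and did not pass the test. Timp1, an inhibitor of matrix metalloproteinases, had 180.1, 450.0 and 288 CPM in Sesn2-KO IR and 89.2, 76.6 and 86.5 CPM in Sesn2-KO sham hearts, against 61.3, 141 and 177 CPM in young WT IR and 2.08, 3.16 and 3.74 CPM in young WT sham hearts. The 2 genotypes did not overlap after sham or after IR. Its difference of responses was -3.55 ± 0.65 (adjusted p = 0.0792), and its mean increment was 222 CPM in Sesn2-KO and 124 CPM in young WT. The metallothionein gene Mt2, which has close paralogues, was at -2.08 ± 0.40 (adjusted p = 0.111) and the metalloproteinase gene Mmp19 at -1.46 ± 0.29 (adjusted p = 0.159). DESeq2's Wald test called all 3.

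Prg4 encodes lubricin, a secreted lubricating glycoprotein, and differed between genotypes after both procedures. It had 312, 374 and 293 CPM in Sesn2-KO IR and 139, 167 and 132 CPM in Sesn2-KO sham hearts, against 62.1, 118 and 146 CPM in young WT IR and 16.01, 13.9 and 14.96 CPM in young WT sham hearts. The knockout sham libraries lay near the injured young WT libraries, and the knockout IR libraries were above all others. The genotype difference was called after IR (1.58 ± 0.24, adjusted p = 0.00843) and after sham (3.29 ± 0.27, adjusted p = 6.05e-06). The difference of responses was -1.70 ± 0.35 (adjusted p = 0.171), while the mean increment was 180.2 CPM in Sesn2-KO and 93.9 CPM in young WT. Among the 340 genes with an unadjusted p below 0.05 and a smaller rise in the knockout, 36 had a larger increment in CPM there.

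**Figure D3:**
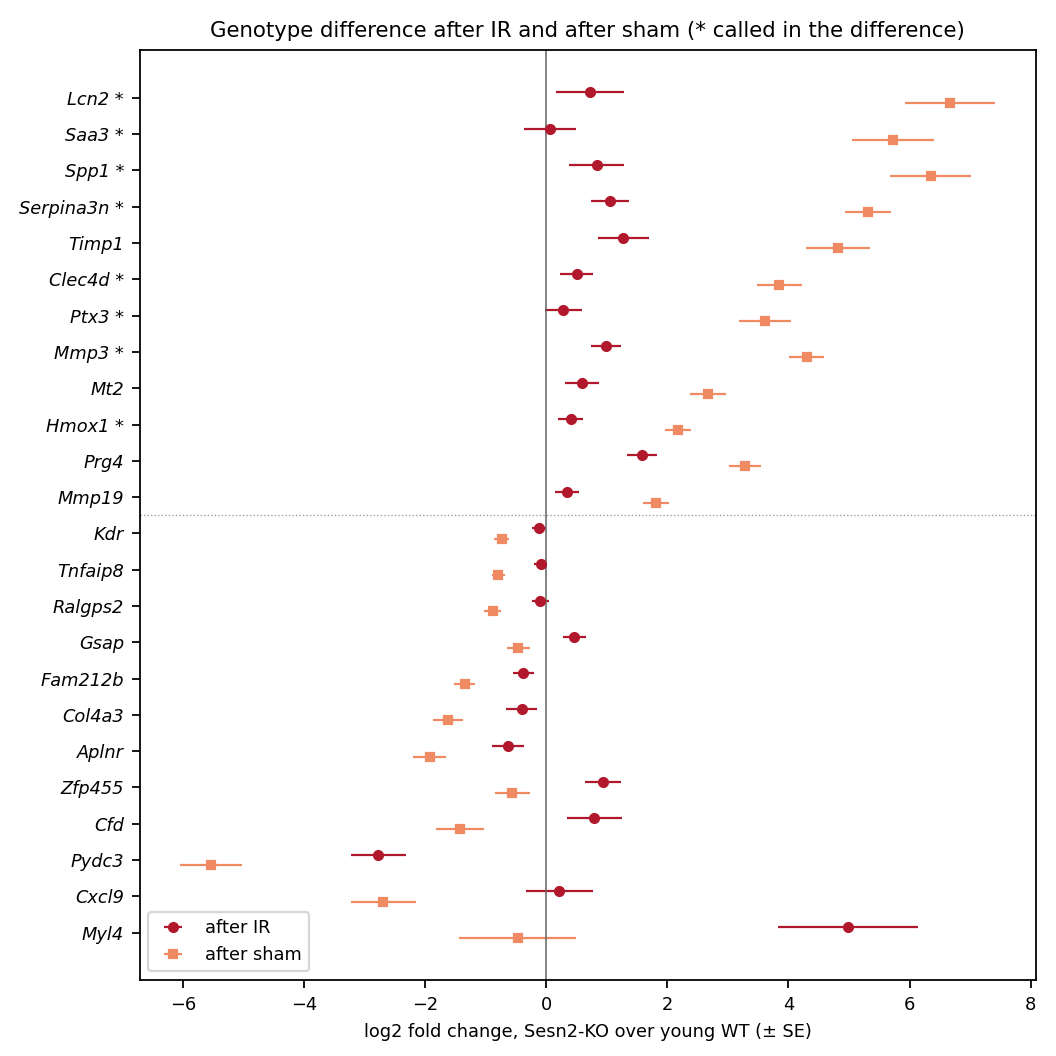
Log2 fold change of Sesn2-KO over young WT after IR (circles) and after sham (squares), with standard errors from the fit, for the 12 named genes with a lower response in the knockout (above the dotted line) and the 12 with a higher one (below it). An asterisk marks the 8 called genes, whose squares lie between 2.18 and 6.67 and whose circles lie between 0.06 and 1.06.

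No gene passed the test for a higher response in the knockout, and the 12 with the smallest unadjusted p are described as values. Tnfaip8, a regulator of cell death, came nearest. It had 92.7, 86.2 and 75.7 CPM in Sesn2-KO IR and 85.2, 93.99 and 81.6 CPM in Sesn2-KO sham hearts, against 91.6, 98.2 and 81.4 CPM in young WT IR and 143, 165 and 144 CPM in young WT sham hearts. The young WT sham libraries stood above the other 9, and the difference of responses was 0.70 ± 0.15 (adjusted p = 0.188; called by DESeq2's Wald test). The same arrangement held for Ralgps2 (0.79 ± 0.20, adjusted p = 0.425), a guanine nucleotide exchange factor gene, and for Fam212b (0.97 ± 0.25, adjusted p = 0.425).

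Kdr, Aplnr and Col4a3 were among the genes with a higher value that did not pass the test. Kdr, the main receptor of vascular endothelial growth factor, had 161, 129 and 140.4 CPM in Sesn2-KO IR and 187, 146 and 139.6 CPM in Sesn2-KO sham hearts, against 147, 176 and 146 CPM in young WT IR and 258, 275 and 253 CPM in young WT sham hearts. Its response was -0.13 ± 0.12 in Sesn2-KO and -0.75 ± 0.12 in young WT (adjusted p = 0.00247 in young WT), a difference of 0.61 ± 0.17 (adjusted p = 0.515). Aplnr, the apelin receptor gene, was at 1.29 ± 0.37 (adjusted p = 0.56) and Col4a3, a basement membrane collagen gene, at 1.22 ± 0.35 (adjusted p = 0.56). For Kdr, Aplnr and Col4a3 the genotype difference was called in sham hearts, where the knockout was lower (-0.73, -1.93 and -1.62), and was not called after IR (-0.12, -0.64 and -0.40). Of the 20 endothelial markers 0 were called in the difference of responses, with a median of 0.13 and 5 below 0. That sign rested on 1 library: without Sesn2-KO IR 1 the median was -0.09, with 13 of 20 below 0.

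Cfd, which encodes the complement protease factor D, was at 2.22 ± 0.61 with values between 0.224 and 2.41 CPM in the 12 libraries (adjusted p = 0.515). It is also an adipocyte gene, and the 3 young WT sham libraries were the highest, at 1.25, 2.37 and 2.41 CPM. Zfp455 was at 1.49 ± 0.42 (adjusted p = 0.515) and Gsap at 0.93 ± 0.26 (adjusted p = 0.545). Gsap, which encodes the gamma-secretase activating protein, had 7.32, 8.53 and 6.66 CPM in Sesn2-KO IR and 4.51, 4.32 and 4.60 CPM in Sesn2-KO sham hearts, against 4.61, 5.16 and 6.58 CPM in young WT IR and 5.47, 6.00 and 7.06 CPM in young WT sham hearts. Its Sesn2-KO IR libraries overlapped the young WT sham libraries, and the genotype difference was 0.46 ± 0.19 after IR and -0.46 ± 0.19 after sham. Pydc3, a pyrin-domain gene, was lower in Sesn2-KO hearts both after IR (-2.77 ± 0.45, adjusted p = 0.00994) and after sham (-5.53 ± 0.51, adjusted p = 2.44e-05). Its difference of responses was 2.76 ± 0.78 (adjusted p = 0.545) on 0.0727 to 0.496 CPM in the 6 knockout libraries.

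By edgeR, larger and opposite responses were found only among genes that did not pass the test. DESeq2's Wald test called 1 opposite gene, the atrial gene Sln, and limma voom with quality weights also called 1. Of the larger ones with the smallest p, Gsap is given above. This class goes by size and also holds changes of sign in which a response was below 0.5, as for Irx1, Fmo2 and Rsph3a. Irx1, a homeobox transcription factor gene, had a response of -0.96 ± 0.24 in Sesn2-KO and 0.19 ± 0.24 in young WT. Fmo2, a flavin monooxygenase gene, had -0.44 ± 0.18 and Rsph3a, a radial spoke gene, -0.30 ± 0.12 in Sesn2-KO, against 0.41 ± 0.18 and 0.27 ± 0.12 in young WT. Of the opposite ones, Spock2, which encodes a matrix proteoglycan, had 11.1, 9.17 and 13.2 CPM in Sesn2-KO IR and 19.3, 13.8 and 19.4 CPM in Sesn2-KO sham hearts, against 35.3, 7.78 and 13.5 CPM in young WT IR and 6.17, 8.61 and 6.73 CPM in young WT sham hearts. The first young WT IR library held the high value, and the difference was -2.04 ± 0.55 (adjusted p = 0.515). Lrrc52 was at -2.90 ± 0.81 (adjusted p = 0.515), with 4.78 CPM in young WT IR 1 against 1.65 and 1.22 CPM in the other young WT IR libraries.

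Atrial genes were among those with opposite values, and they varied between libraries of a group. Myl4, the atrial essential myosin light chain, had 239, 6.84 and 39.6 CPM in Sesn2-KO IR and 32.5, 8.35 and 4.37 CPM in Sesn2-KO sham hearts, against 3.24, 3.22 and 2.44 CPM in young WT IR and 45.4, 6.95 and 10.1 CPM in young WT sham hearts. The first library was the highest in each group, though in young WT IR only by 3.24 against 3.22 CPM. Myl4's difference was 5.46 ± 1.49 (adjusted p = 0.515). Myl7, the atrial regulatory light chain, was at 252, 0.483 and 37.3 CPM in Sesn2-KO IR and 27.3, 2.31 and 0.0741 CPM in Sesn2-KO sham, against 1.71, 0.150 and 0.0940 CPM in young WT IR and 36.7, 4.66 and 5.07 CPM in young WT sham hearts. Sln, the atrial calcium pump inhibitor sarcolipin, had 1192 counts over the Sesn2-KO IR group and 90 over Sesn2-KO sham, against 0 over young WT IR and 130 over young WT sham. Within Sesn2-KO IR it ran from 0.161 to 104 CPM. Its fitted difference thus rested on an uneven group and on a group at 0. All 7 tested atrial markers had a value above 0, with 0 called by edgeR and a median of 1.58. DESeq2's Wald test called Sln higher (adjusted p = 0.00746), the third of its calls in that direction beside Tnfaip8 and Cxcl9. Without Sesn2-KO IR 1 the median of the 7 was 0.66 with 1 of 7 below 0. The part of atrial tissue in these values was not tested.

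Gene lists were read by how many of their tested members were called and by their median, beside all genes (8 of 13859 called, median -0.03, 54.5% below 0). A member that passed the filter through the groups in which it was high had to differ, so the counts are a description of the members tested. Of 20 neutrophil markers 14 were tested. In the difference of responses 2 were called lower (Clec4d and Lcn2), all 14 were below 0 and the median was -3.31. The median log2 response was 0.97 in Sesn2-KO with 0 called, and 4.44 in young WT, where 14 rose (4.17% of all genes rose). Between genotypes 0 were called after IR, with a median of 0.49, and 12 were higher in Sesn2-KO after sham (3.32% of all genes were), with a median of 3.79. The S100 alarmin genes S100a8 and S100a9 were at -3.28 ± 0.70 and -3.19 ± 0.74 (adjusted p = 0.188 and 0.308). S100a8 had 23.1, 40.8 and 23.9 CPM in Sesn2-KO IR and 25.8, 8.35 and 15.2 CPM in Sesn2-KO sham hearts, against 18.3, 13.9 and 32.7 CPM in young WT IR and 0.901, 1.03 and 1.83 CPM in young WT sham hearts.

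The summed level of the neutrophil markers was 702, 518 and 439 CPM in Sesn2-KO IR and 250.3, 666 and 433 CPM in Sesn2-KO sham, against 526, 185 and 339.5 CPM in young WT IR and 10.3, 12.2 and 13.8 CPM in young WT sham hearts. Young WT sham hearts were low in each library and the other groups overlapped. Lcn2, itself a called gene, made up the larger part of this sum in each of the 9 libraries outside young WT sham. Without Lcn2, a split chosen after the values were seen, the sum was 120.5, 224 and 134 CPM in Sesn2-KO IR and 102, 47.9 and 84.6 CPM in Sesn2-KO sham, against 84.8, 84.8 and 163 CPM in young WT IR and 7.14, 9.47 and 8.73 CPM in young WT sham hearts. The Sesn2-KO IR libraries were then above all Sesn2-KO sham libraries, and young WT IR overlapped with both. Granule genes on the list differed in level. Over each group Elane had 0 counts, Mpo 0 to 4, Camp 0 to 2, Ltf 2 to 5 and Ngp 0 to 4. Mmp8 and Mmp9 had 99 and 352 counts over Sesn2-KO IR and 74 and 161 over Sesn2-KO sham. They had 68 and 170 over young WT IR and 3 and 44 over young WT sham. The part of neutrophil number in the values of Lcn2, Clec4d and the other genes called was not tested.

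The list of acute cytokines and chemokines also held acute-phase and innate defence genes. Of its 36 genes 34 were tested and 3 were called lower in the difference. These were Serpina3n, Saa3 and Ptx3, none of which encodes a cytokine or chemokine. Of the 34, 29 were below 0 and the median was -1.07. Without the 4 length-tilted libraries the median was -0.56, with 23 of 34 below 0. The median response was 1.02 in Sesn2-KO with 0 called, and 2.27 in young WT, where 19 rose (4.17% of all genes rose). Ccl7, a monocyte-attracting chemokine gene, had 55.3, 61.1 and 59.3 CPM in Sesn2-KO IR and 18.8, 29.7 and 32.5 CPM in Sesn2-KO sham hearts, against 26.7, 49.1 and 47.7 CPM in young WT IR and 2.91, 3.79 and 6.57 CPM in young WT sham hearts. The other 3 groups lay above young WT sham, and Ccl7's difference was -2.11 ± 0.44 (adjusted p = 0.188). Of the list, 1 gene was higher in Sesn2-KO after IR (0.31% of all genes) and 20 after sham (3.32% of all genes).

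All 28 monocyte and macrophage markers were tested, 0 were called in the difference, 22 were below 0 and the median was -0.35. Arg1, Chil3 and Lgals3, genes of alternatively activated or wound macrophages, were among those with the smallest p. Arg1, an arginase gene, had 22.1, 96.6 and 44.4 CPM in Sesn2-KO IR and 11.6, 7.01 and 8.38 CPM in Sesn2-KO sham hearts, against 8.79, 16.2 and 31.5 CPM in young WT IR and 0, 0 and 0.332 CPM in young WT sham hearts. Its difference of -4.78 ± 1.33 did not pass (adjusted p = 0.515), and neither did Chil3 at -3.85 ± 1.11 or Lgals3 at -2.12 ± 0.61 (adjusted p = 0.546 and 0.545). Young WT sham held 4 counts of Arg1 over the group, all in young WT sham 3, and without that library the fitted difference was -8.27, against a group at 0 and so no bound. Without the other libraries in turn it ran between -5.49 and -4.17. The mean increment of Arg1 was 45.4 CPM in Sesn2-KO and 18.7 CPM in young WT. The summed level of the 28 genes was 2285, 2363 and 1957 CPM in Sesn2-KO IR and 1904, 1828 and 1760 CPM in Sesn2-KO sham, against 1457, 1997 and 1809 CPM in young WT IR and 913, 1382 and 1310 CPM in young WT sham hearts.

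Of 46 tested fibrillar matrix and remodelling genes, 2 were called lower (Mmp3 and Spp1), 36 were below 0 and the median was -0.57. The median response was 0.67 in Sesn2-KO with 0 called, and 1.23 in young WT, where 25 rose and 1 fell (4.17% and 1.9% of all genes). Lox, the collagen cross-linking enzyme, had a response of 1.35 ± 0.35 in Sesn2-KO and 2.92 ± 0.39 in young WT (difference -1.58 ± 0.51, adjusted p = 0.637). Col1a1, the main fibrillar collagen chain, had 250.2, 158 and 203 CPM in Sesn2-KO IR and 108, 150.2 and 192 CPM in Sesn2-KO sham hearts, against 135, 420.1 and 314 CPM in young WT IR and 81.3, 96.6 and 94.6 CPM in young WT sham hearts. The groups of the 2 genotypes overlapped after IR, with the 2 highest values in young WT IR 2 and 3, and the difference was -1.23 ± 0.42 (adjusted p = 0.672).

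**Figure D4:**
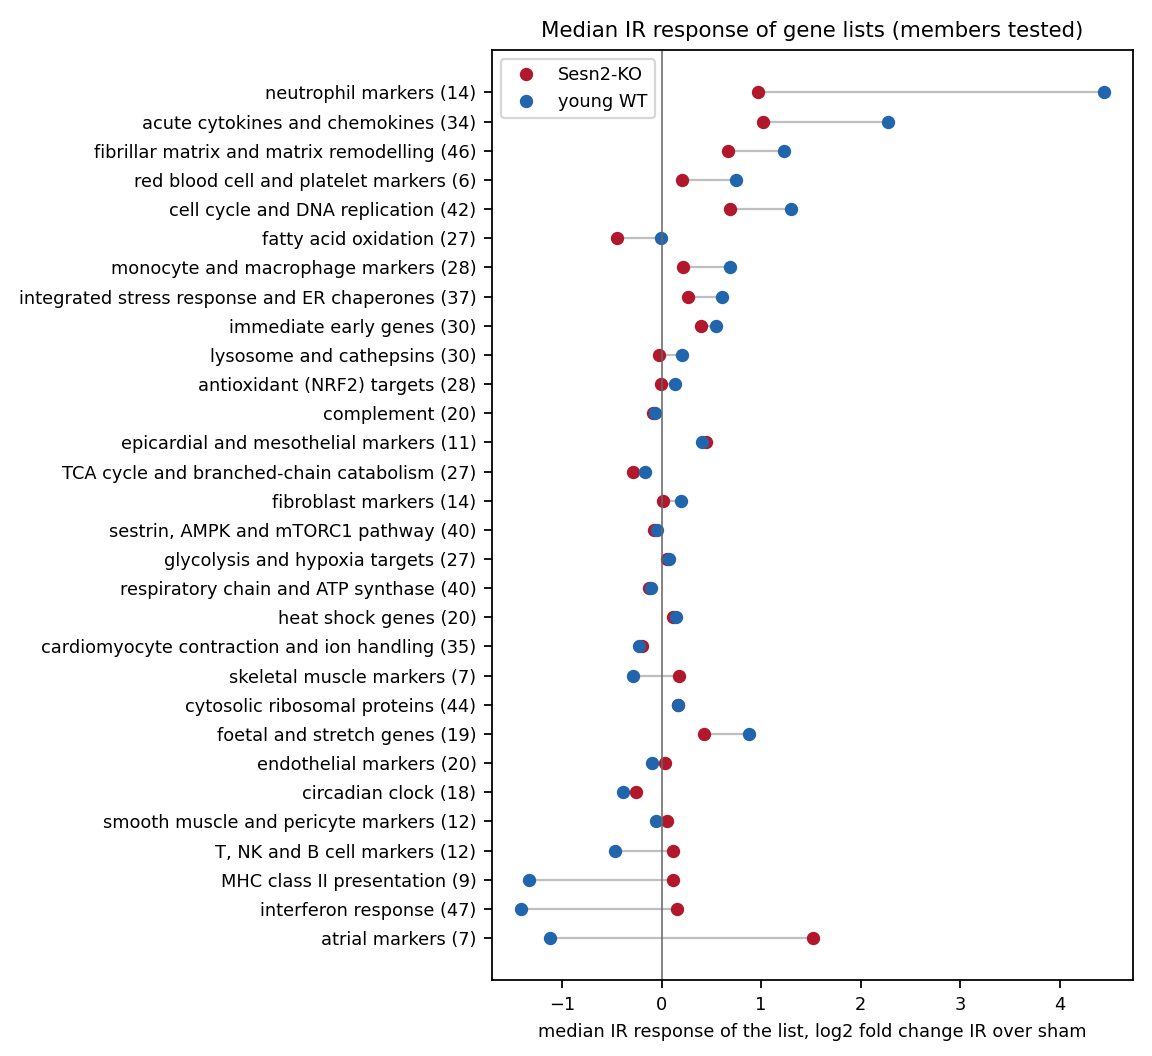
Median log2 response to IR of each gene list in Sesn2-KO (red) and young WT (blue), joined by a line, with the number of members tested in brackets, for lists with at least 5 tested. The distance is widest for the neutrophil markers, at 0.97 in Sesn2-KO and 4.44 in young WT, and it turns round for the interferon genes, at 0.15 and -1.41.

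Interferon-response and MHC class II genes had the reverse sign, and its size depended on young WT sham 3. All 47 tested interferon genes had a value above 0, with 0 called and a median of 1.56. The median response was 0.15 in Sesn2-KO with 0 called, and -1.41 in young WT, where 14 fell (1.9% of all genes fell). The chemokine gene Cxcl9 had 10.3, 4.75 and 5.03 CPM in Sesn2-KO IR and 6.61, 6.34 and 5.26 CPM in Sesn2-KO sham hearts, against 4.18, 7.85 and 4.98 CPM in young WT IR and 13.9, 21.6 and 82.7 CPM in young WT sham hearts, and a difference of 2.90 ± 0.76 (adjusted p = 0.475; called by DESeq2's Wald test). The interferon-inducible GTPase genes Tgtp2, Gbp3 and Gbp4 were at 2.86 ± 0.89, 2.57 ± 0.80 and 2.66 ± 0.82 (adjusted p = 0.606 each). Gbp4 was at 44.00, 63.96 and 354 CPM in young WT sham 1, 2 and 3. Without young WT sham 3 the list's median was 0.48, with 7 of 47 below 0.

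MHC class II genes present antigen to helper T cells. Of 9 tested, 0 were called in the difference, 0 were below 0 and the median was 1.36. H2-Aa had 107, 148 and 89.4 CPM in Sesn2-KO IR and 153, 107 and 100.4 CPM in Sesn2-KO sham hearts, against 38.5, 73.3 and 49.9 CPM in young WT IR and 98.9, 138 and 287 CPM in young WT sham hearts. Here the young WT IR libraries were the low ones, below all Sesn2-KO libraries. The difference was 1.63 ± 0.57 for H2-Aa, 1.49 ± 0.59 for H2-Eb1, 1.31 ± 0.51 for the invariant chain gene Cd74 and 2.24 ± 0.74 for Ciita, the master regulator of the class (adjusted p 0.638 to 0.834). These 4 fell after IR in young WT (1.9% of all genes fell), and 5 of the 9 genes were injury-weighted (24.1% of all genes were). Without young WT sham 3 the list's median was 0.84, over 10 genes tested.

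Fatty acid oxidation values depended on young WT IR 1. All 27 fatty acid oxidation genes had a value below 0, with 0 called and a median of -0.35. The median response was -0.45 in Sesn2-KO and -0.0015 in young WT, and 24 of the 27 were larger in size in the knockout. The summed level was 19700, 13750 and 16280 CPM in Sesn2-KO IR and 18100, 23500 and 21760 CPM in Sesn2-KO sham, against 25820, 16190 and 16220 CPM in young WT IR and 19090, 20290 and 20380 CPM in young WT sham hearts. Without young WT IR 1 the median was -0.08, with 22 of 27 below 0. Angptl4, an inhibitor of lipoprotein lipase, was at -1.98 ± 0.71 (adjusted p = 0.738). Unlike the list it was higher after IR in young WT, at 19.2 to 72.5 CPM against 6.98 to 11.8 CPM after sham. In Sesn2-KO it had 110 to 206 CPM after IR, overlapping 34.3 to 135 CPM after sham. The fatty acid transporter gene Slc27a1 was at -0.86 ± 0.42 (adjusted p = 0.894).

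Of 27 genes of the TCA cycle and branched-chain amino acid catabolism 0 were called, with a median of -0.14 and 24 below 0. Without young WT IR 1 that median was 0.03, with 12 of 27 below 0. The median was -0.02 for 40 genes of the respiratory chain, -0.01 for 35 genes of contraction and ion handling and -0.0008 for 44 cytosolic ribosomal protein genes, with 0 called in each. The respiratory chain median was 0.12 without young WT IR 1. Without the 4 length-tilted libraries the contraction median was 0.08 and the ribosomal median 0.19. Mybpc3, cardiac myosin-binding protein C, fell after IR in young WT (-0.59 ± 0.13, adjusted p = 0.0134) and was at -0.22 ± 0.13 in Sesn2-KO, a difference of 0.37 ± 0.18 (adjusted p = 0.895). The summed level of contraction genes was 73600, 70130 and 64640 CPM in Sesn2-KO IR and 78270, 74180 and 77790 CPM in Sesn2-KO sham, against 78140, 70460 and 72010 CPM in young WT IR and 85590, 85360 and 88940 CPM in young WT sham hearts. It was highest in young WT sham hearts, with no overlap with the other groups. Sprr1a, a stress gene of cardiomyocytes, was at -4.66 ± 1.20 (adjusted p = 0.425), with 9.59, 15.3 and 29.9 CPM in Sesn2-KO sham and 0.416, 0.553 and 0.0831 CPM in young WT sham hearts.

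**Figure D5:**
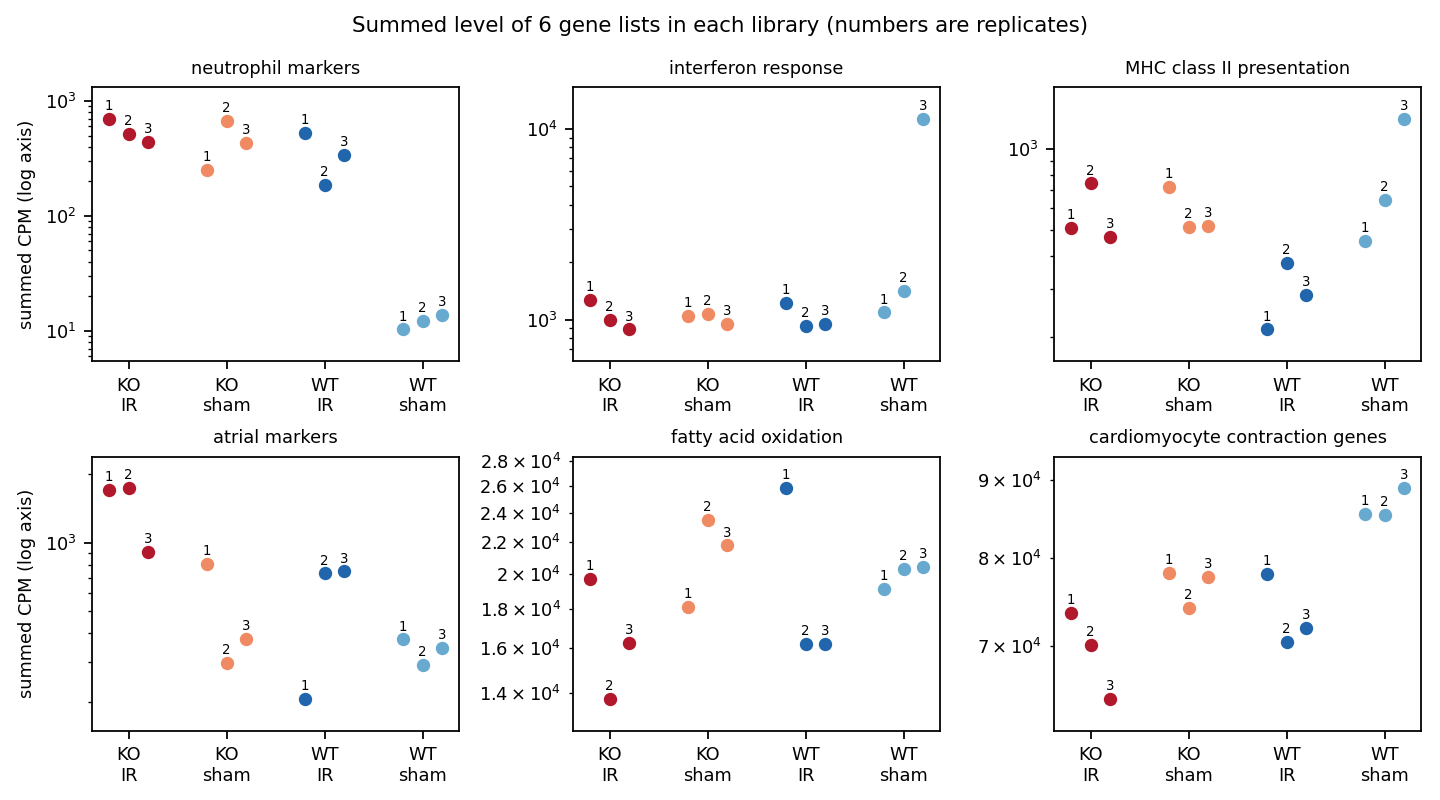
Summed CPM (log axis) of 6 gene lists in each of the 12 libraries, with the replicate number above each point. Young WT sham 3 is alone at 11320 CPM for interferon genes, young WT IR 1 is the highest for fatty acid oxidation, and the 3 young WT sham libraries lie at 10.3 to 13.8 CPM for neutrophil markers, below the other 9.

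Of 37 integrated stress response and ER chaperone genes 0 were called in the difference, 31 were below 0 and the median was -0.34. Their median response was 0.26 in Sesn2-KO with 0 called, and 0.60 in young WT, where 15 rose (4.17% of all genes). Xbp1, a transcription factor of the unfolded protein response, had 133, 177 and 169 CPM in Sesn2-KO IR and 138, 118 and 151 CPM in Sesn2-KO sham hearts, against 129, 155 and 177 CPM in young WT IR and 84.2, 87.96 and 102 CPM in young WT sham hearts. Young WT sham was the low group, and the difference was -0.52 ± 0.22 (adjusted p = 0.875). The ER chaperone partner gene Sdf2l1 was at -1.34 ± 0.58 and Herpud1, an ER degradation gene, at -0.82 ± 0.31 (adjusted p = 0.875 and 0.799).

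Of 30 immediate early genes 0 were called, with a median of -0.33 and 20 below 0. Junb, an AP-1 subunit gene, was at -0.98 ± 0.32 (adjusted p = 0.638). Hmox1 was the 1 call among 28 tested NRF2 targets, whose median was -0.19. For 20 heat shock genes the median was -0.02, and for 30 lysosomal genes it was -0.20, with 0 called in each.

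Cell cycle genes depended on 1 library. Of 42 tested 0 were called, 37 were below 0 and the median was -0.46, with 19 injury-weighted. Without young WT IR 2 the median was 0.24. The summed level of the list was 555, 487 and 554 CPM in Sesn2-KO IR and 364, 381 and 438 CPM in Sesn2-KO sham, against 310.5, 877 and 547 CPM in young WT IR and 412, 406 and 465 CPM in young WT sham hearts. Uhrf1, a DNA methylation maintenance gene, was at -1.03 ± 0.66 (adjusted p = 1) and the cyclin gene Ccnd1 at 0.80 ± 0.26 (adjusted p = 0.637).

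The pathway of the deleted gene showed no called difference of responses. Of 40 tested genes of the sestrin, AMPK and mTORC1 pathway 0 were called, 25 were below 0 and the median was -0.05. Tsc2, which encodes a subunit of the mTORC1-restraining TSC complex, had 118, 106 and 115 CPM in Sesn2-KO IR and 138, 149 and 154 CPM in Sesn2-KO sham hearts, against 144, 132 and 135 CPM in young WT IR and 150.0, 130.4 and 129.8 CPM in young WT sham hearts. Sesn2-KO IR libraries were the lowest, and the difference was -0.38 ± 0.14 (adjusted p = 0.75). Mtor, the kinase itself, was at -0.34 ± 0.14, Stk11, the AMPK kinase LKB1, at -0.39 ± 0.16 and Flcn, a regulator of Rag GTPases, at -0.38 ± 0.18 (adjusted p = 0.856, 0.866 and 0.89). For Sesn2, Sesn1 and Sesn3 the differences were 0.43 ± 0.92, -0.42 ± 0.26 and 0.10 ± 0.46 (adjusted p = 1.00 each). Sesn1 was at 130.2, 88.01 and 110.0 CPM in Sesn2-KO IR and 139.5, 181 and 172 CPM in Sesn2-KO sham, against 231, 144 and 163 CPM in young WT IR and 219, 185 and 198 CPM in young WT sham hearts, and its genotype difference was not called after IR (-0.71 ± 0.19, adjusted p = 0.121).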

How the data were processed

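Left ventricles were profiled by stranded mRNA sequencing. The authors deposited whole-number counts of fragments per gene, not normalized, in 1 table of 24421 gene symbols per sample. Per the submitters' processing notes, reads were handled with SAMtools, TopHat2, Bowtie2, FastQC and HTSeq on mm10; for the strand option, annotation and versions the entry is: not given in the sources used here. Fragments in no gene (6.12% to 9.06%) and in more than 1 gene stayed out of library sizes and tests. Mitochondrially encoded genes were not analysed here.

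The test was that of edgeR 4.0.16 under R 4.3.3, with filterByExpr (13859 genes), TMM scaling, and 1 robust quasi-likelihood model with a mean for each of 6 groups over 18 libraries. The contrasts used 12 libraries; the 6 aged libraries, not described here, entered only the estimate of spread. P-values were adjusted by Benjamini-Hochberg within each contrast. CPM values use TMM-scaled library sizes, standard errors come from the test statistic, and ± after a log2 value is that error. Positions are from GENCODE M21 by symbol.

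Groups came from the sample titles. No label gives a litter, a day of surgery or a sequencing run, and p-values therefore reflect only how these hearts varied. Replicates were compared by chi-square, and no pair was identical or within sampling noise (14.42 to 50.85 per degree of freedom). Same-numbered samples did not deviate together in every pair (correlations of -0.25 to 0.72), so the number was not used as a pairing. Reads carried no molecular identifiers, so counts of reads are not counts of independent molecules.

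The comparison and the 35 gene lists were chosen with earlier results of these data known. Up to 12 called genes in each direction of the difference were named, at a mean of at least 1 CPM. Genes with the smallest unadjusted p filled these places, and up to 4 more came from each response class and each list, by p, with Sesn1, Sesn2 and Sesn3. Predicted and clone-named genes were left out, and 2 genes that the rule names are not reported here. The steps were tested on simulated data. There 31 of 100 genes with a 2-fold difference of responses were recovered and 83 of 100 with a 4-fold one. In that simulation 4 genes without a difference were called. Alternatives were scaling by upper quartile or by size factors, keeping genes of low count, limma 3.58.1 voom with quality weights, the Wald test of DESeq2 1.42.0, the 12 libraries alone, the replicate block, a length covariate, leaving out the length-tilted libraries or each library in turn, and CPM increments. Leaving out young WT sham 3 with young WT IR 1 was added after seeing the data.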

Additional observations from a re-analysis of the deposited data

Results flagged for a closer look

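For 8 genes the response to IR differed between Sesn2-KO and young WT hearts by a test of the difference itself (edgeR's quasi-likelihood interaction contrast, Benjamini-Hochberg adjusted over 13859 genes, n = 3 a group). The log2 differences, Sesn2-KO minus young WT, were -5.95 for Lcn2, -5.67 for Saa3 and -5.51 for Spp1. They were -4.26 for Serpina3n, -3.35 for Clec4d, -3.33 for Ptx3 and -3.32 for Mmp3. Hmox1 had -1.78. In each case all 3 young WT IR libraries were above all 3 young WT sham libraries, and the Sesn2-KO sham libraries were above the young WT sham libraries. The contrast that selected the genes holds these same libraries, so this order is a description and adds no support.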

How the results depend on the processing

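The number of genes called in the difference of responses was 8 with DESeq2 size factors or upper quartile scaling (8 of 8 shared), 6 without a filter on low counts and 7 with the 12 libraries alone. DESeq2's Wald test called 30, of which 27 were lower and 3 higher, with all 8 shared, and limma voom with quality weights called 12, with 7 shared. The length covariate gave 8 calls, of which 1 was higher. Without the 4 length-tilted libraries 0 were called by edgeR (534 at an unadjusted p below 0.05). Leaving out 1 library at a time gave 2 to 16 calls, 2 to 16 lower and 0 to 1 higher. Without young WT sham 3 and young WT IR 1 there were 13, all lower, with 8 of 8 shared. The replicate block gave 6 calls, all among the 8; no label says that a replicate number marks a shared animal or batch, and for the other contrasts it gave 879 in young WT, 755 in sham, 68 after IR and 0 in Sesn2-KO.

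Calls of IR against sham in Sesn2-KO were 131 by DESeq2's Wald test, 1235 by voom and 0 to 1 without single libraries. In young WT they were 1318 by DESeq2, 2637 by voom, 497 with the 12 libraries alone, 2020 with the length covariate, 34 without the length-tilted libraries and 270 to 1465 without single libraries. For the genotypes in sham they were 1112, 2167, 414, 1679 and 142 under the same 5 settings, 296 to 904 without single libraries, and 464 without young WT sham 3 and young WT IR 1. After IR they were 258, 227, 28, 190 and 28, with 9 to 97 and 19. The reasons for these shifts were not tested.

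Signs turned for few named genes. In CPM increments the difference was 22.7 for Spp1, 98.2 for Timp1, 86.4 for Prg4, 26.7 for Arg1, 3.92 for Chil3, 11.1 for Sprr1a and 6.88 for Angptl4. Sesn3 was at -0.22 with voom, -0.01 without Sesn2-KO IR 3, -0.11 without Sesn2-KO sham 1, -0.11 without young WT IR 1 and -0.20 without young WT sham 1. Sesn2 was at -0.13 without Sesn2-KO sham 1 and -0.02 without young WT sham 1. Leaving out single libraries, Sesn2 ran between -0.13 and 1.56 and Sesn3 between -0.20 and 0.30. Depth limits genes at a few counts, such as Sesn2 in the knockout and Pydc3.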

Other observations

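Lists of other cell types gave values that belong to no comparison above. Of 12 tested T, NK and B cell markers 0 were called in the difference of responses, with a median of 0.90. Between genotypes 1 was higher in Sesn2-KO after IR (median 1.09) and 2 after sham (median -0.29), against 0.31% and 3.32% of all genes. For 11 epicardial markers, with 0 called, the median difference of responses was -0.17 and ran between -0.75 and 2.26 over the alternatives. Their median between genotypes was -2.49 after IR with 0 called, and -1.93 after sham. After sham 1 was higher and 2 lower in Sesn2-KO, against 3.32% and 1.79% of all genes. The median difference of responses was -0.09 for 14 fibroblast markers and 0.17 for 12 smooth muscle and pericyte markers. It was -0.51 for 6 red cell and platelet markers and -0.0015 for 7 skeletal muscle markers, with 0 called in each list. Over the alternatives the medians of the smooth muscle (-0.08 to 0.25) and skeletal muscle markers (-0.14 to 0.54) changed sign. Of 7 lung epithelial markers 0 passed the filter, and their summed level was 0 to 0.52 CPM in all 12 libraries.

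Of 20 tested complement genes 0 were called in the difference of responses (median -0.18), 0 after IR (median 0.58) and 7 were higher in Sesn2-KO in sham hearts (median 0.67; 3.32% of all genes were higher). Their summed level was 2515, 2018 and 1995 CPM in Sesn2-KO IR and 2741, 2420 and 2364 CPM in Sesn2-KO sham, against 1635, 1424 and 1304 CPM in young WT IR and 1121, 1743 and 1492 CPM in young WT sham hearts, and the genotypes did not overlap.

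The circadian clock list had a median of 0.15 with 0 of 18 called, and glycolysis and hypoxia targets had -0.03 (-0.09 to 0.04 over the alternatives) with 0 of 27 called. Foetal and stretch genes had a median of 0.11 with 0 of 19 called and single genes between -4.66 and 5.77. The sign of that median turned: it was -0.36 without Sesn2-KO IR 2 (16 of 19 below 0), -0.24 without young WT IR 1 (17 of 20 below 0) and 0.42 without the 4 length-tilted libraries.

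Of 10 adipocyte markers 3 were tested, with a median of 0.20. It was 1.75 over all 10 with no filter on low counts and -0.18 without Sesn2-KO IR 1. Adipoq, Cidec and Plin1, which did not pass the filter and are named after their values were seen, had 7, 4 and 4 counts over Sesn2-KO IR and 9, 10 and 4 over Sesn2-KO sham, against 5, 4 and 2 over young WT IR and 22, 21 and 12 over young WT sham hearts. Cfd, the adipocyte and complement gene, was also highest in young WT sham hearts. Other members did not share this order. Cidea was lowest in young WT sham, at 1952 counts against 2207 over Sesn2-KO IR, 2924 over Sesn2-KO sham and 2321 over young WT IR. Pck1 had 14 counts over each sham group, and Fabp4 had 32044 over Sesn2-KO sham and 29910 over young WT sham. The part of fat tissue in these values was not tested.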
